A study of Homo sapiens with 12 samples.

Results

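The family of miR-15, miR-16, miR-195, miR-424 and miR-497 was described in embryonal carcinoma cells after knock-down of SOX2. Members were the assays numbered miR-15, miR-16, miR-195, miR-424, miR-497 or miR-503 with no further digit, minor strands left out. Of 501 assays in the normalised table, 6 met this rule. Hsa-miR-15b, hsa-miR-16, hsa-miR-195 and hsa-miR-424 were measured in all 12 samples. Hsa-miR-15a and hsa-miR-497 had values in NTera-2 cells only, and miR-503 was not analysed here.

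MiRNA levels were measured by quantitative real-time PCR on TaqMan array cards A and B in NTera-2 and 2102Ep, established human embryonal carcinoma lines, the malignant counterpart of pluripotent stem cells. NTera-2 cells are called pluripotent and 2102Ep cells nullipotent, since the 2102Ep line resists differentiation by retinoic acid, although it too can differentiate under other conditions, loss of SOX2 among them. The 4 groups held 3 biological replicates each, namely NTera-2 cells given an siRNA against SOX2 (siSOX2), NTera-2 cells given the non-targeting control siRNA (NC), 2102Ep siSOX2 and 2102Ep NC. The siRNA was used at 30 nM in NTera-2 cells and at 15 nM in 2102Ep cells, with a different Lipofectamine reagent in each, for 6 h in both lines, and cells were taken after a further 72 h. Line, siRNA dose and reagent therefore cannot be told apart in any comparison between the lines. The knock-down was transient, and SOX2 itself was not analysed here.

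MiRNAs of this family are short RNAs that guide Argonaute proteins to messenger RNAs, which they recognise mainly through the seed near the 5′ end. In many cell types they repress cyclins of the D and E classes and other genes needed to pass the G1 phase, as well as the survival gene BCL2. The DLEU2 locus that holds miR-15a and miR-16-1 is often deleted in chronic lymphocytic leukaemia, and miR-424 and miR-503 are known for promoting cell-cycle exit during differentiation of mouse muscle cells and human monocytes.

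The mature sequences are shown because the shared seed defines the family while the remaining bases set the members apart. They are RefSeq sequences (GRCh38.p14), written 5′ to 3′ with the seed (bases 2 to 8) in capitals.
hsa-miR-15a: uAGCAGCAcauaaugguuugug
hsa-miR-15b: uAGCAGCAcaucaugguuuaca
hsa-miR-16: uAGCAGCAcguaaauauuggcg
hsa-miR-195: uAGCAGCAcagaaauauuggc
hsa-miR-424: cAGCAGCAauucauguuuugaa
hsa-miR-497: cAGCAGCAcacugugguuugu
hsa-miR-503: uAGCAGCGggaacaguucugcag
hsa-miR-103: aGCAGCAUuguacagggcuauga
hsa-miR-107: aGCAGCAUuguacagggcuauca
All 6 members in the table carried the seed AGCAGCA, which 7 of 2370 human mature miRNAs in RefSeq hold at these bases (0.295%). The seed of miR-503 differed from it, and miR-103 and miR-107 of the wider group carried GCAGCAU. Outside the seed the members diverged. Counted without gaps from base 9 on, miR-195 equalled miR-16 at 11 of 13 bases, miR-15a at 8 of 14, miR-15b at 6 of 14, miR-424 at 5 of 14 and miR-497 at 4 of 13.

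The genes lie in pairs. MIR15A (chr13:50049119-50049201, minus strand) and MIR16-1 (chr13:50048973-50049061, minus strand) are 57 bases apart within the span of the long non-coding RNA DLEU2. MIR15B (chr3:160404588-160404685, plus strand) and MIR16-2 (chr3:160404745-160404825, plus strand) are 59 bases apart within the span of SMC4, a subunit of condensin. MIR497 (chr17:7017911-7018022, minus strand) and MIR195 (chr17:7017615-7017701, minus strand) are 209 bases apart within MIR497HG. MIR424 (chrX:134546614-134546711, minus strand) lies 215 bases from MIR503 and overlaps MIR503HG. The 2 hairpins of miR-16 give 1 mature sequence, so its assay could not tell them apart.

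Values are given as raw Ct, the PCR cycle at which signal passed the threshold, and as dCt, the raw Ct minus a constant per sample and card. Both are log2 scales on which a lower value means more RNA. On card A, which held every member but miR-497, the constant equalled the mean raw Ct of miR-16 and U6 in each sample (within 5e-05 cycles). The dCt of miR-16 therefore compares it with a mean that it is part of and understates its change against U6. From row 106 on, the raw Ct column of 2102Ep siSOX2 replicate 3 stood 1 place out of line with its assay names, and the constant was added to its dCt to recover the raw Ct given here. A sample had between 421 and 451 measured assays, fewest in 2102Ep siSOX2 replicate 2. All 8 embryonal carcinoma markers (miR-302a to miR-302d, miR-367, miR-371-3p, miR-372 and miR-373) were measured in every sample, with group means between Ct 13.93 and Ct 26.13.

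The first question was how the family responded to SOX2 knock-down in 2102Ep cells. MiR-424 was the member that rose. Its dCt was 7.69, 7.82 and 7.32 in 2102Ep siSOX2 cells, against 9.27, 9.00 and 9.13 in 2102Ep NC cells. Its raw Ct was 25.93, 25.74 and 25.75 in siSOX2 cells, against 27.55, 27.06 and 27.48 in NC cells. All 3 siSOX2 samples lay below all 3 NC samples on both scales. The log2 difference was 1.52 (SE 0.25, 95% CI 0.96 to 2.08), a 2.88-fold higher level in siSOX2 cells, with an adjusted p of 0.0033 (limma, Benjamini-Hochberg over 432 assays, called under 0.05). Here and below a positive difference of siSOX2 minus NC means more RNA in siSOX2 cells. In bulk RNA, more cells with miR-424 and more miR-424 per cell cannot be told apart. By that difference miR-424 stood ninth among the 20 assays that passed the test and were higher, and those made up 4.63% of all assays tested. The split of called assays followed the reference, at 20 higher and 43 lower with the deposited dCt but 41 higher and 18 lower with RNU44 and RNU48, small nucleolar RNAs used as references.

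The other members of 2102Ep cells did not pass the test. MiR-15b, which shares a transcript with miR-16-2, had dCt values of 4.35, 5.00 and 4.92 in siSOX2 cells, against 5.04, 4.79 and 5.94 in NC cells. Its log2 difference was 0.50 (95% CI -0.28 to 1.28, adjusted p = 0.44, limma), with overlapping groups. MiR-195 had dCt values of 5.12, 5.07 and 5.23 in siSOX2 cells, against 4.93, 5.61 and 5.65 in NC cells. NC replicate 1 lay below every siSOX2 sample, and the log2 difference was 0.26 (95% CI -0.24 to 0.75, adjusted p = 0.55, limma). MiR-16 had raw Ct values of 21.57, 21.12 and 21.82 in siSOX2 cells, against 21.62, 21.30 and 21.77 in NC cells. Its dCt differed by 0.03 on the log2 scale (95% CI -0.34 to 0.40, adjusted p = 0.94, limma), and its difference set against U6 alone was 0.07 (95% CI -0.40 to 0.53).

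Thus 1 of 4 members was called in 2102Ep cells, beside 14.6% of all 432 assays (63), and 1 of 4 had groups that did not overlap, beside 31.9% of all assays. The median log2 difference of the 4 was 0.38, beside -0.00253 over all assays. Without siSOX2 replicate 3, whose raw Ct column was displaced, the difference of miR-424 was 1.38 (adjusted p = 0.013, limma), and without siSOX2 replicate 2, which had the fewest measured assays, it was 1.63 (adjusted p = 0.0088, limma). The unequal-variance test of each assay alone gave an adjusted p of 0.070 for miR-424 and called 8 assays in all.

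**Figure D1:**
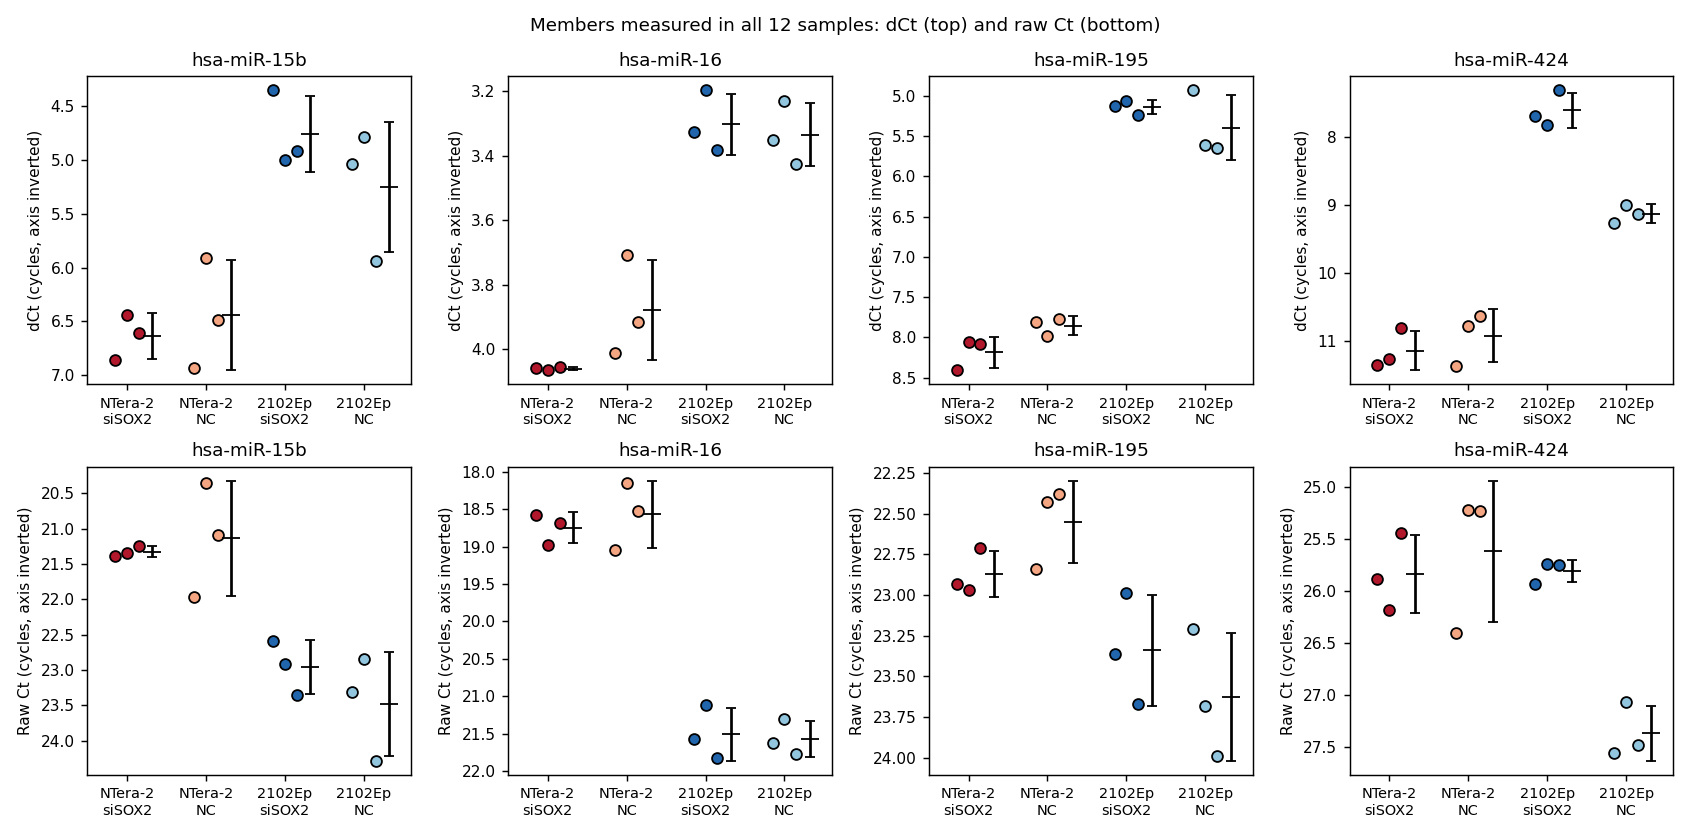
dCt (top) and raw Ct (bottom) in cycles, on inverted axes so that more RNA is higher, of the 4 members measured in all 12 samples. Each point is a sample and the bar at its right is the group mean with its SD (n = 3); for miR-424 in 2102Ep cells the siSOX2 samples lie at dCt 7.32 to 7.82 and the NC samples at 9.00 to 9.27.

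In NTera-2 cells no member passed the test. MiR-424 had dCt values of 11.35, 11.27 and 10.81 in NTera-2 siSOX2 cells, against 11.37, 10.78 and 10.63 in NTera-2 NC cells. Its raw Ct was 25.88, 26.18 and 25.44 in siSOX2 cells, against 26.40, 25.22 and 25.23 in NC cells. The groups overlapped on both scales. The log2 difference of -0.22 had a 95% CI from -0.79 to 0.35 (adjusted p = 0.69, limma), whose upper end lies below the lower end of 0.96 found in 2102Ep cells.

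MiR-15b had dCt values of 6.86, 6.44 and 6.61 in NTera-2 siSOX2 cells, against 6.93, 5.91 and 6.49 in NC cells (log2 difference -0.19, 95% CI -0.99 to 0.60). MiR-195 had dCt values of 8.41, 8.06 and 8.09 in siSOX2 cells, against 7.80, 7.99 and 7.77 in NC cells (log2 difference -0.33, 95% CI -0.83 to 0.17). MiR-16 had dCt values of 4.06, 4.07 and 4.06 in siSOX2 cells, against 4.01, 3.71 and 3.92 in NC cells (log2 difference -0.18, 95% CI -0.55 to 0.19). Set against U6 alone, its difference was -0.36 (95% CI -0.86 to 0.13). Both miR-195 and miR-16 had dCt groups that did not overlap, 2 of the 6 members, beside 29.0% of all 451 assays. Their raw Ct did overlap, at 22.93, 22.97 and 22.71 for miR-195 in siSOX2 cells, against 22.84, 22.43 and 22.38 in NC cells. For miR-16 the raw Ct was 18.58, 18.98 and 18.68 in siSOX2 cells, against 19.04, 18.15 and 18.52 in NC cells.

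The 2 members seen in NTera-2 cells alone had the widest confidence intervals. MiR-15a had raw Ct values of 28.31, 26.09 and 28.58 in siSOX2 cells, against 28.31, 25.95 and 25.01 in NC cells (log2 difference -1.24, 95% CI -3.71 to 1.22). That difference was -0.58 without NC replicate 3 and -2.14 without siSOX2 replicate 2. MiR-497, processed from the same primary transcript as miR-195, had raw Ct values of 8.75, 8.64 and 6.93 in siSOX2 cells, against 8.01, 10.73 and 8.75 in NC cells (log2 difference 0.86, 95% CI -1.43 to 3.15). MiR-497 was the earliest of 445 NTera-2 assays by mean raw Ct, and that mean also lay before that of U6 on card B, which was 10.12 in siSOX2 cells and 10.30 in NC cells. MiR-195 of the same gene pair was 115th in that order. Of the 445 assays, 2 had a mean raw Ct below 10, and the median over all was 25.04. Whether the assay read miR-497 at such early cycles was not tested, so its Ct is not read as abundance.

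Of 6 members, 0 were called in NTera-2 cells by limma, beside 5.54% of 451 assays (25), and 0 had an unadjusted p under 0.05. The equal-variance and unequal-variance tests of each assay alone also called 0. The median difference of the 6 was -0.21 and that of all assays was -0.27. Set against the global mean, which raised the median of all assays to 0.06, the differences were 0.03 for miR-15b, 0.04 for miR-16, -0.11 for miR-195 and 0.01 for miR-424, so that 3 of these directions flipped.

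**Figure D2:**
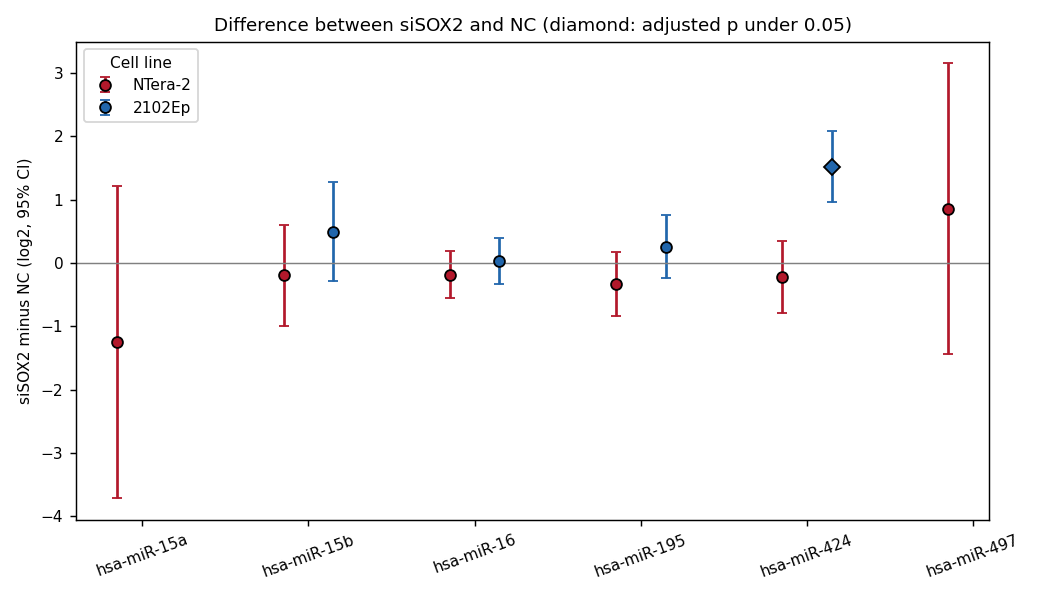
Log2 difference of siSOX2 minus NC for each member, with its 95% confidence interval, in NTera-2 (red, left) and 2102Ep cells (blue, right). MiR-424 in 2102Ep cells, at 1.52, is the point whose interval lies clear of 0; miR-15a and miR-497 have no value in 2102Ep cells.

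Whether the response differed between the lines was tested as the siSOX2 effect in NTera-2 minus that in 2102Ep cells. For miR-424 the effect was -0.22 in NTera-2 cells and 1.52 in 2102Ep cells. Their difference was -1.74 (SE 0.36, 95% CI -2.53 to -0.96, adjusted p = 0.023, limma). For miR-15b the difference was -0.69 (95% CI -1.79 to 0.41), for miR-195 -0.59 (95% CI -1.29 to 0.11) and for miR-16 -0.21 (95% CI -0.73 to 0.30), and none of these 3 passed. Set against U6 alone, that of miR-16 was -0.43 (95% CI -1.08 to 0.22). The share of members called was 1 of 4, beside 6.23% of 385 assays. With a replicate block the adjusted p for miR-424 was 0.052 (limma), with the global median it was 0.060, and it was 0.063 to 0.070 without 2102Ep NC replicate 3, NTera-2 NC replicate 3 or NTera-2 siSOX2 replicate 1 or 2.

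Because all 4 members share card A, miR-424 could also be set against the other 3 within each sample, where the card constant cancels. MiR-16 is among those 3 and is itself part of that constant, so a reference RNA enters. The comparison with the other 3 was chosen after the values were seen. The Ct of miR-424 minus the mean Ct of miR-15b, miR-16 and miR-195 was 3.42, 3.40 and 2.81 in 2102Ep siSOX2 cells, against 4.83, 4.45 and 4.13 in 2102Ep NC cells. The siSOX2 mean lay 1.26 cycles lower and the groups did not overlap (exact permutation p = 0.1, two-sided, the smallest that 3 against 3 samples allow). In NTera-2 cells the same distance was 4.91, 5.08 and 4.56 in siSOX2 cells, against 5.12, 4.91 and 4.57 in NC cells. These groups overlapped, with means 0.02 cycles apart (exact permutation p = 0.8, two-sided). Taken singly, the 2102Ep siSOX2 and NC groups lay apart for miR-424 against miR-16 and against miR-195, and overlapped for miR-424 against miR-15b.

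**Figure D3:**
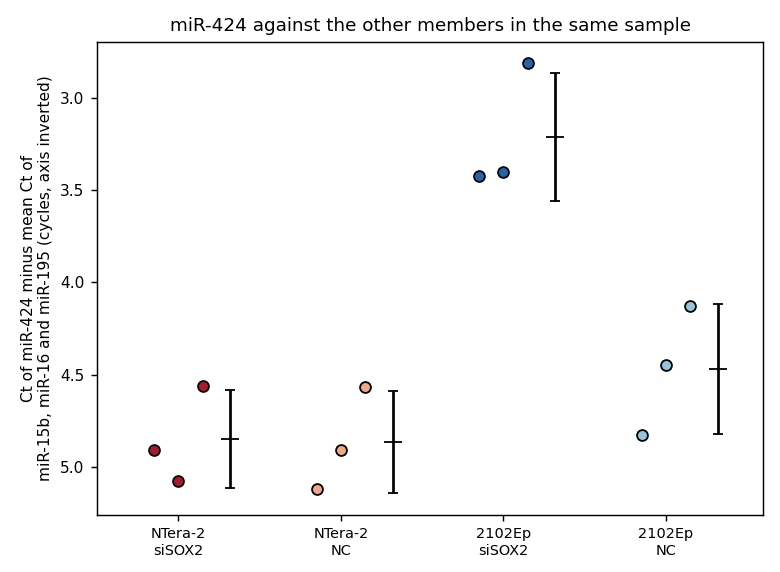
Ct of miR-424 minus the mean Ct of miR-15b, miR-16 and miR-195 of the same sample, in cycles on an inverted axis, with group means and SD (n = 3). The 2102Ep siSOX2 samples lie at 2.81 to 3.42 and the samples of the other 3 groups at 4.13 to 5.12.

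By raw Ct the order of the members was the same in all 4 groups at its ends, with miR-16 first and miR-424 last among the 4. Raw Ct orders cycles of different assays and not molecules. In 2102Ep cells miR-15b and miR-195 could not be ordered, since their ranges overlapped, at 22.59 to 23.35 and 22.99 to 23.67 in siSOX2 cells and at 22.85 to 24.28 and 23.21 to 23.99 in NC cells. In NTera-2 cells miR-15b came clearly before miR-195, at 21.24 to 21.39 and 22.71 to 22.97 in siSOX2 cells and at 20.35 to 21.97 and 22.38 to 22.84 in NC cells. The raw Ct of miR-15a in NTera-2 cells, 25.01 to 28.58, overlapped that of miR-424.

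Some distances between members, in which the card constant cancels, lay apart between the lines. Of the 6 pairs of members, 5 had groups apart between NTera-2 and 2102Ep cells in siSOX2 samples and 3 did in NC samples. These pairs come from 4 assays and are not independent, and the share over all pairs of assays was not computed. Set against the mean of the assays on their card, 75.3% of 385 single assays were called between the lines in siSOX2 samples. In NC samples 72.5% of 386 were. The Ct of miR-16 minus that of miR-195 was -4.35, -4.00 and -4.03 in NTera-2 siSOX2 cells, against -1.80, -1.87 and -1.85 in 2102Ep siSOX2 cells. In the NC samples it was -3.79, -4.28 and -3.86 in NTera-2 cells, against -1.58, -2.38 and -2.22 in 2102Ep cells. MiR-16 therefore preceded miR-195 by about 2 cycles more in NTera-2 cells (mean difference -2.29 in siSOX2 and -1.92 in NC samples), with groups apart in both (exact permutation p = 0.1, two-sided, the smallest possible). The Ct of miR-15b minus that of miR-195 also lay apart, by -1.17 cycles in siSOX2 and -1.27 cycles in NC samples of NTera-2 minus 2102Ep cells, as did that of miR-16 minus miR-424, by -2.78 and -1.25 cycles. The pairs of miR-15b with miR-16 and with miR-424 lay apart in siSOX2 samples, by 1.12 and -1.66 cycles, and overlapped in NC samples, by means of 0.64 and -0.61 cycles. MiR-195 minus miR-424 overlapped between the lines in both, with mean differences of -0.49 cycles in siSOX2 samples (exact permutation p = 0.2, two-sided) and 0.66 cycles in NC samples (exact permutation p = 0.3, two-sided).

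How much of each member the lines held depended on the choice of reference, which moved all 4 by the same amount because they share card A. Each member crossed the threshold earlier in NTera-2 NC than in 2102Ep NC cells. The mean raw Ct differences were -2.99 cycles for miR-16, -2.35 for miR-15b, -1.74 for miR-424 and -1.08 for miR-195. These raw Ct groups did not overlap, and the share of all assays with raw Ct groups apart was not computed. The reference RNAs were also earlier, by -4.08 cycles for U6, -1.78 for RNU48 and -1.05 for RNU44. In siSOX2 samples the raw Ct of miR-424 averaged 25.83 in NTera-2 cells and 25.81 in 2102Ep cells, and these groups overlapped.

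Set against the mean of the assays measured on the card, all 4 members were higher in NTera-2 NC than in 2102Ep NC cells. The log2 difference was 3.11 for miR-16 (SE 0.24, adjusted p = 7.3e-05, limma), 2.46 for miR-15b (SE 0.42, adjusted p = 0.0019), 1.86 for miR-424 (SE 0.28, adjusted p = 0.0010) and 1.19 for miR-195 (SE 0.25, adjusted p = 0.0047). That is 4 of 4 members, beside 72.5% of 386 assays called in either direction and 39.1% called higher. The members' median was 2.16, beside 0.17 over all assays. Set against U6 all 4 were lower, at -1.09 for miR-16, -1.73 for miR-15b, -2.34 for miR-424 and -3.00 for miR-195, and the median of all 234 assays tested moved to -4.04. With the deposited dCt, whose card A constant holds U6 and miR-16, they were lower too, at -0.54, -1.19, -1.79 and -2.46 in the same order. The median of all assays was then -5.35, but it pools both cards and is no background for these members of card A. The card B constant was 24.7, 24.6 and 24.3 in 2102Ep NC cells, against 16.9, 16.4 and 16.8 in NTera-2 NC cells. With RNU44 and RNU48 the difference was 1.57 for miR-16 (adjusted p = 0.0024, limma), 0.93 for miR-15b, 0.33 for miR-424 and -0.34 for miR-195, the last 3 not past the threshold.

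**Figure D4:**
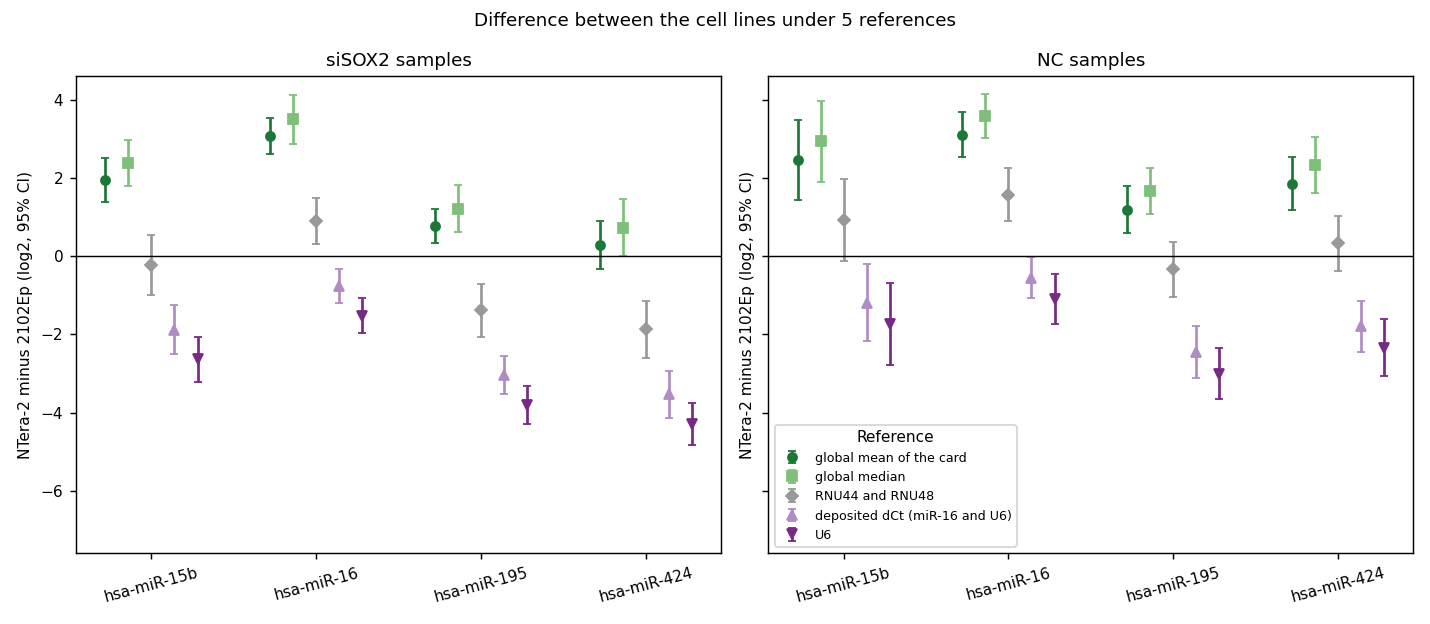
Log2 difference of NTera-2 minus 2102Ep cells for the 4 members in siSOX2 samples (left) and NC samples (right), with 95% confidence intervals, under 5 references. The order of the members is the same under each reference while the height follows the reference; miR-16 in NC samples lies at 3.11 against the mean of the card and at -1.09 against U6.

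In the siSOX2 samples, set against the mean of the card, miR-16 was higher in NTera-2 cells by 3.07 (SE 0.19), miR-15b by 1.95 (SE 0.24) and miR-195 by 0.78 (SE 0.18), all past the threshold. MiR-424 differed by 0.29 (95% CI -0.33 to 0.90, adjusted p = 0.33, limma). That is 3 of 4 members, beside 75.3% of 385 assays called in either direction and 41.3% called higher. Against U6 the 4 were again lower, between -4.29 for miR-424 and -1.52 for miR-16. On the scale of the card mean, miR-424 stood at -1.34, -1.48 and -1.09 in NTera-2 siSOX2 cells, against -1.74, -1.86 and -1.18 in 2102Ep siSOX2 cells, where 0 is the mean of the card. In NC cells it stood at -1.66, -1.17 and -1.10 in NTera-2 cells, against -3.44, -2.84 and -3.19 in 2102Ep cells. The 2102Ep NC samples lay below all other samples.

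The group means of the RNAs that serve as references differed less within a line than between lines. U6 on card A had a mean raw Ct of 10.62 ± 0.20 in NTera-2 siSOX2 cells and 10.81 ± 0.18 in NTera-2 NC cells, and of 14.90 ± 0.17 in 2102Ep siSOX2 cells and 14.89 ± 0.05 in 2102Ep NC cells (SD, n = 3 each). RNU44 averaged 16.12 ± 0.45 in NTera-2 siSOX2 cells and 16.28 ± 0.58 in NTera-2 NC cells, whose samples ran from 15.83 to 16.93. In 2102Ep cells RNU44 averaged 17.76 ± 0.17 with siSOX2 and 17.33 ± 0.23 with NC, a difference of 0.43 cycles. RNU48 differed by 0.21 cycles in the same direction. With RNU44 and RNU48 as reference the median of all assays in 2102Ep cells moved to 0.43, and miR-424 was higher by 1.88 (adjusted p = 0.0021, limma).

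**Figure D5:**
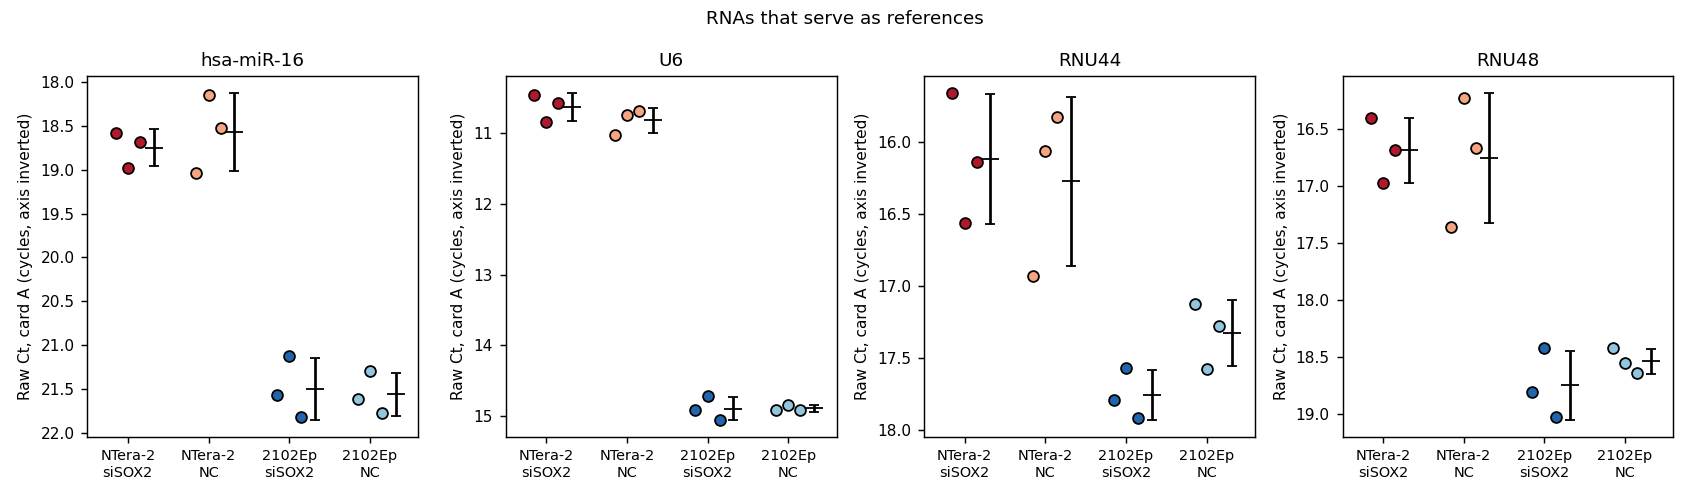
Raw Ct on card A of miR-16, U6, RNU44 and RNU48 in each sample, in cycles on inverted axes, with group means and SD (n = 3). All 4 lie earlier in NTera-2 than in 2102Ep cells, and U6 by the most, at group means of 10.62 to 10.81 in NTera-2 and 14.89 to 14.90 in 2102Ep cells.

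Of the minor strands of the same hairpins, 4 were in the table, and 0 were called for siSOX2 against NC by limma among the 2 tested in 2102Ep and the 4 tested in NTera-2 cells. MiR-424#, the other strand of the miR-424 hairpin, had values in NTera-2 cells only, at raw Ct 26.50, 27.56 and 26.00 in siSOX2 cells, against 27.22, 25.58 and 27.23 in NC cells. MiR-15b# had raw Ct values of 27.53, 26.20 and 27.97 in 2102Ep siSOX2 cells, against 27.12, 29.62 and 28.12 in 2102Ep NC cells, and a log2 difference of 1.22 (95% CI -0.36 to 2.80). In NC cells, against the mean of the card, miR-15b# was higher in NTera-2 than in 2102Ep cells by 5.84 (adjusted p = 0.00073, limma) and miR-15a# by 2.01 (adjusted p = 0.0073, limma).

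MiR-103 and miR-107 of the wider group, which carry the shifted seed, were called in 0 of the 5 comparisons by limma. In 2102Ep cells miR-103 had a log2 difference of 0.76 (95% CI -0.25 to 1.77). Among other miRNAs known to restrain G1, the let-7 and miR-34 families, siSOX2 against NC gave 0 calls by limma among 5 tested in 2102Ep cells and 0 among 4 tested in NTera-2 cells. The lowest adjusted p of these was that of miR-34c in NTera-2 cells, with a log2 difference of -0.66 (adjusted p = 0.10, limma). Between the lines some were called. For NTera-2 minus 2102Ep NC cells, against the mean of the card, let-7b differed by 8.08 (adjusted p = 0.00022, limma). MiR-34a differed by -1.44 (adjusted p = 0.0035) and miR-34c by 0.76 (adjusted p = 0.038). In siSOX2 samples let-7b differed by 8.90 (adjusted p = 3.8e-05) and miR-34a by -1.29 (adjusted p = 0.0089). The other let-7 assays did not share the pattern of let-7b. Let-7b was late in 2102Ep cells, at raw Ct 31.98, 30.95 and 34.16 with siSOX2 and 29.26, 31.89 and 32.99 with NC. Let-7c had values in every 2102Ep sample and in no NTera-2 sample. Let-7f had values in some 2102Ep samples only, and let-7a in no sample.

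Of the 8 embryonal carcinoma markers, siSOX2 against NC gave 0 calls in 2102Ep cells and 1 in NTera-2 cells. That was miR-372, with a log2 difference of -1.405 (adjusted p = 0.026, limma). In NC cells, against the mean of the card, 6 were called higher and 2 lower in NTera-2 than in 2102Ep cells. The 2 lower were miR-371-3p at -5.92 and miR-372 at -6.13. Of the markers of mesenchymal cells, miR-143 and miR-145 were in the table and 0 of 2 were called in 2102Ep cells. MiR-145 had raw Ct values of 22.34 and 23.00 in 2102Ep siSOX2 replicates 1 and 3 and none in replicate 2, against 23.29, 22.95 and 23.17 in NC cells. MiR-143 had raw Ct values of 22.35 and 23.16 in the same siSOX2 replicates, against 26.72, 24.22 and 27.46 in NC cells, a log2 difference of 3.48 (adjusted p = 0.069, limma). Its part in the rise of miR-424 was not tested. In NTera-2 cells miR-145 had a log2 difference of 1.49 (adjusted p = 0.012, limma), and miR-143 had no values. Of the blood and serum markers, limma called 0 of the 2 tested in 2102Ep cells and 0 of the 3 tested in NTera-2 cells. For NTera-2 minus 2102Ep NC cells, against the mean of the card, miR-223 differed by -2.71 (adjusted p = 0.0013, limma). MiR-486 differed by 1.29 (adjusted p = 0.018, limma). In siSOX2 samples miR-223 differed by -2.43 (adjusted p = 0.0024) and miR-486 by 1.40 (adjusted p = 0.0029).

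Likeness of pattern was measured as the root mean square difference over the 12 samples, on the scale of the card mean, each assay centred on its own mean, among 369 other assays measured throughout. This is a description over 12 samples of only 2 lines. The most like miR-424 were miR-301b (0.25), miR-24 (0.34) and miR-27b (0.39), and miR-195 had rank 10 (0.56). The most like miR-16 were miR-92a (0.22), miR-20a (0.22) and miR-18a (0.24). For miR-15b they were miR-151-5p (0.33), miR-30e-3p (0.33) and miR-1260 (0.36), and for miR-195 miR-204 (0.26), miR-328 (0.32) and miR-744 (0.32). No member had another member among its 3 nearest assays.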

How the data were processed

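Levels came from TaqMan array cards A and B in 12 samples, after reverse transcription and pre-amplification. The authors exported raw Ct (a log2 scale) from DataAssist 3.0 without normalization, and the deposited dCt, also on a log2 scale, is the raw Ct minus a constant per sample and card. The constant of card A was found to be the mean of miR-16 and U6, and that of card B in NTera-2 cells the mean of U6, RNU48 and miR-16-1#. No such source was found for card B in 2102Ep cells, where it was used unchanged. Another deposited table of fold changes and p-values holds the authors' own comparisons and was not used. Columns marked neg and pos were read as NC and siSOX2 from the sample titles.

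In 1 column, 2102Ep siSOX2 replicate 3, 0.590% of 339 raw values from row 106 on matched their dCt as placed and 99.7% did after a move of 1 place (tolerance 0.02 cycles). Values with a numeric dCt and a raw Ct below 40 were taken as measured. An assay was tested if each arm had 2 or 3 measured samples, by fitting minus dCt in limma (version 3.58.1, R 4.3.3, lmFit and eBayes, two-sided), with 4 group means over 12 samples. The lines were compared on the 6 NC or the 6 siSOX2 samples as raw Ct minus the mean, per card, of assays measured in all of them. The Benjamini-Hochberg adjustment ran over all assays of a comparison, with a threshold of 0.05. The script was tested on simulated data.

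Named assays were all members, the reference RNAs, up to 4 called assays of each list by adjusted p, and the 3 assays most like each member. Others were named after their values were seen. Members and lists were chosen with earlier results of these data known. Same-numbered siSOX2 and NC samples deviated together more than different-numbered ones in both lines. In NTera-2 cells r across assays was 0.12 to 0.27 for same numbers, against at most 0.05 for different numbers. In 2102Ep cells r was 0.06 to 0.17 for same numbers, against at most 0.04 for different numbers. The labels do not say whether the numbers mark pairs. The main fits held no pairing in either line, and the replicate block was run as an alternative. Replicates held 0 identical pairs (r = 0.94 to 0.99). Precision is limited by 3 samples a group, and PCR cycles give no molecule counts. Alternatives were other references, filters on raw Ct, complete assays only, unmeasured values at Ct 40, other sample sets, eBayes with a trend, tests of each assay alone, a replicate block and each sample left out. U6 with the block and miR-424 set against the other members were added after the data were seen.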

Additional observations from a re-analysis of the deposited data

Results flagged for a closer look

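The siSOX2 effect on miR-424 differed between the lines when tested directly, by -1.74 on the log2 scale for NTera-2 minus 2102Ep cells (adjusted p = 0.023, limma). The call was lost with a replicate block (adjusted p = 0.052, limma), which the same-numbered samples of both lines call for. It was also lost with the global median (adjusted p = 0.060, limma). So it was when 2102Ep NC replicate 3, NTera-2 NC replicate 3 or NTera-2 siSOX2 replicate 1 or 2 was left out (adjusted p = 0.063 to 0.070, limma). The effect was -0.22 in NTera-2 cells, where the dCt groups overlapped, and 1.52 in 2102Ep cells, where all 3 siSOX2 samples lay below all 3 NC samples in dCt. Line, siRNA dose, transfection reagent and how far SOX2 fell in each line cannot be told apart in this difference.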

How the results depend on the processing

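Over the 22 fitted results, 508 alternative values were computed, of which 470 kept direction and side of the threshold. The rise of miR-424 in 2102Ep cells was past the threshold in 13 of 14 alternatives, the exception being the unequal-variance test (1.52, adjusted p = 0.070), and with each sample left out. Its difference between the lines passed in 10 of 12, and missed with the global median (-1.62, adjusted p = 0.060) and with a replicate block (-1.74, adjusted p = 0.052), while U6 with the block gave -1.96 (adjusted p = 0.021). With single samples left out it ran from -1.97 to -1.60 and was missed without 2102Ep NC replicate 3 (-1.74, adjusted p = 0.069), NTera-2 NC replicate 3 (-1.60, adjusted p = 0.070), NTera-2 siSOX2 replicate 1 (-1.64, adjusted p = 0.063) and NTera-2 siSOX2 replicate 2 (-1.68, adjusted p = 0.069). The replicate block changed no other call of a member. For NTera-2 against 2102Ep samples, however, the block matched replicate numbers across separate lines, so it tests no real pairing there. The cause of the lost calls was not tested.

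Directions that flipped among effects never called were those of miR-15b (0.03), miR-16 (0.04) and miR-424 (0.01) with the global mean and of miR-15b (0.0021) and miR-16 (0.01) with the global median, each in NTera-2 cells. With samples left out, miR-16 in 2102Ep cells ran from -0.02 to 0.09, miR-15a in NTera-2 cells from -2.14 to -0.58, miR-15b in NTera-2 cells from -0.44 to 0.07 and miR-497 from -0.08 to 1.55, the last 2 turning without NTera-2 NC replicate 2. Set against the other members, the siSOX2 minus NC difference of miR-424 ran from -1.43 to -1.06 cycles in 2102Ep and from -0.16 to 0.13 cycles in NTera-2 cells.

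For NTera-2 minus 2102Ep NC cells the reversed values were, with U6, miR-15b -1.73, miR-16 -1.09, miR-195 -3.00 and miR-424 -2.34, with the deposited dCt -1.19, -0.54, -2.46 and -1.79 in that order, and with RNU44 and RNU48 miR-195 at -0.34. There miR-15b (0.93) and miR-424 (0.33) missed the threshold. For siSOX2 samples they were, with U6, miR-15b -2.64, miR-16 -1.52, miR-195 -3.80 and miR-424 -4.29, with the deposited dCt -1.88, -0.76, -3.05 and -3.54, and with RNU44 and RNU48 -0.22 for miR-15b, -1.38 for miR-195 and -1.87 for miR-424. In NC samples the called assays split into 6 higher and 218 lower with U6 and 53 and 230 with RNU44 and RNU48, against 151 and 129 with the card mean.

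Calls over all assays moved by more than 1.5 times in 2102Ep cells with the equal-variance (39) and unequal-variance tests (8), against 63. In NTera-2 cells, against 25, they were 11 with the 6 samples alone, 15 and 16 with the global mean and median, 16 with RNU44 and RNU48, 9 with the equal-variance and 3 with the unequal-variance test, 9 with the replicate block and 4 with U6 and the block. Of the difference between the lines, against 24, they were 41 with RNU44 and RNU48, 11 with the global median and 4 with the block.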
